A study of Mus musculus with 8 samples.

Results

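The genes of the mitochondrial ribosome were examined in mouse MLL-AF9 leukemia cells, newly generated or obtained after serial transplantation. Members were all rows of the deposited count table named Mrpl or Mrps followed by a digit, and 77 of the 12823 rows met this rule. By name, 48 belonged to the large subunit (Mrpl) and 29 to the small subunit (Mrps). All 77 passed the filter on low values, so none was left out of the test. A further protein of the large subunit, Mrpl58, stands in the table under its older name Ict1 and is described with the mitoribosomal proteins that carry other names.

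MLL-AF9 is the fusion of KMT2A (MLL) with MLLT3 (AF9), a driver of acute myeloid leukemia (AML). In both groups it was introduced by retrovirus, together with GFP, into bone marrow progenitors, and GFP+ cells of C57BL/6 mice were sorted from bone marrow for RNA extraction. New AML (4 libraries) was taken from sublethally irradiated recipients of freshly transduced cells, which developed leukemia about 2 months later. Aggressive AML (4 libraries) is described by the study as obtained from the remaining cells by 5 serial transplantations. The recipients of these transplantations were not irradiated, per the study's methods. The labels give no drug treatment, age, sequencing batch or date, and they do not say how many independent leukemias each group holds. Libraries of a group may therefore share 1 parent leukemia, and p-values measure the spread between these libraries.

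Mitochondria keep a ribosome of their own, built from RNAs encoded in mitochondrial DNA and from proteins that are all encoded in the nucleus, made in the cytosol and imported. It synthesizes core subunits of the respiratory chain and of ATP synthase. Some of its proteins descend from those of bacterial ribosomes, and others are found only in mitochondria. Leukemia cells of the myeloid lineage are known to rely on mitochondrial translation, which certain antibiotics inhibit.

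Total counts lay between 7805544 and 9697777 per library, and a member had between 27 and 2263 counts. Myeloid leukemia markers were detected for 8 of 8 genes, with log2 fold changes of aggressive over new AML from -1.70 to 0.65. Of the 8, 2 were higher and 2 lower in aggressive AML at an edgeR adjusted p under 0.05. This is 50%, against 18.4% of all genes tested. None of the 5 T cell or 3 NK cell markers was in the table. The 5 neutrophil markers (S100a8, S100a9, Ngp, Ltf, Camp) were all lower in aggressive AML, with a summed level of 249 to 362 CPM (counts scaled by the library total and its TMM factor) in new AML and 126 to 176 CPM in aggressive AML. Macrophage markers summed to 63.1 to 109 CPM in new AML and 37.5 to 56.9 CPM in aggressive AML, where C1qa and C1qb were not in the table. Erythroid markers summed to 25.0 to 94.6 CPM and 9.54 to 51.3 CPM, respectively. The 4 Y-linked genes summed to 251 to 287 CPM in the new AML libraries and had 0 counts in all 4 aggressive AML libraries. Male mice are described for the RNA-seq of both groups, and the sex of the progenitor donors was not given. Why these counts were 0 was not tested, nor was the descent of the aggressive AML cells from the new AML cells. Whatever separates the groups in the Y-linked genes and serial transplantation itself cannot be told apart, and the part of the cell type markers in the values below was not tested.

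The promoters of the members that differed in the comparison below are shown first. Whether these sequences have a part in the differences was not tested. Promoter sequences came from RefSeq (build GRCm38.p6) and matched 68 of the 77 members by symbol. Each stretch has 180 bases, 150 before and 30 after the RefSeq start, written 5′ to 3′ on the strand of the gene. Capitals mark a match to 1 of 4 motifs searched on both strands, namely CCGGAAG (bound by ETS factors such as GABP), GCGCATGCG (NRF1), AAGATGGCG (YY1) and CACGTG (the E-box bound by MYC and MAX).
Mrpl2, chr17:46646071-46646250, + strand: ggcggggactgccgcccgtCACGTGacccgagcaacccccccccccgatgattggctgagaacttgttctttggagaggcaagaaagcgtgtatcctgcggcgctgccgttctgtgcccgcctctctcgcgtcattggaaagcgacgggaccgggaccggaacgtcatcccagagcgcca
Mrps10, chr17:47369047-47369226, + strand: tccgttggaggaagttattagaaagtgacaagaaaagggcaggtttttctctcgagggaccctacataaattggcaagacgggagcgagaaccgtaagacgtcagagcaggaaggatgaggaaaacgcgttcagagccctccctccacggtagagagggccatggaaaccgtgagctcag
Mrpl57, chr14:57826089-57826268, + strand: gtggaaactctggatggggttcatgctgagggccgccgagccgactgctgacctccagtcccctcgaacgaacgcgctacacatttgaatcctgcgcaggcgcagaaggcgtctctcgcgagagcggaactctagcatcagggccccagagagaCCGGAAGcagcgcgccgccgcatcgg
Mrpl3, chr9:105053118-105053297, + strand: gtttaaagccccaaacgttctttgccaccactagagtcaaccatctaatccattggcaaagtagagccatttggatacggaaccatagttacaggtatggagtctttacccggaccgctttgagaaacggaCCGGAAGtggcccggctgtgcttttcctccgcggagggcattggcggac
The ETS motif stood close to the start of Mrpl57 and Mrpl3, an E-box stood before that of Mrpl2, and none of the 4 motifs was found in the window of Mrps10. Mrpl2 has 3 starts in the table, of which the first is shown. Mrps28, the remaining member that differed, had no entry.

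Over all 74 member promoters of 300 bases, the ETS motif was found in 25 (33.8%), against 18.4% of the 11885 promoters of genes tested and 8.86% of all 32851 promoters. The NRF1 motif was found in 9.46% of member promoters, against 3.74% of those of tested genes and 1.75% of all. The YY1 motif was found in 10.8%, against 3.16% and 1.40%. The E-box did not stand out in the same way. It was found in 9.46% of member promoters, against 10.2% of those of tested genes and 7.15% of all. Promoters are counted per start, and the 74 belong to 68 members. The 7 promoters with an E-box belong to 5 members, because overlapping windows of Mrpl2 hold the same site. Matches to the ETS motif lay at a median of 16 bases before the start, and 26 of 29 lay within 100 bases of it. These are matches to letters, and whether a factor was bound was not measured.

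Levels of the members spanned a wide range within each subunit. To compare genes, CPM were divided by transcript length in kilobases and averaged over all 8 libraries. In the large subunit the median was 32.1 CPM per kb and the range 6.03 (Mrpl47) to 480 (Mrpl33). The next highest members, Mrpl34 and Mrpl54, stood at 111 and 98.7 CPM per kb. Mrpl33, the counterpart of the small bacterial protein L33, stood above the rest of its subunit, and an exon of it overlaps Gm43809 on the same strand, so its counts may include reads of that gene. The lowest members were Mrpl47, Mrpl23 (7.38 CPM per kb) and Mrpl48 (7.55 CPM per kb, or 17.3 with the median length of its transcripts). In the small subunit the median was 21.9 CPM per kb, with Mrps21 (114), Mrps18c (74.3) and Mrps15 (64.2) highest and Mrps36 (5.84), Mrps25 (6.29) and Mrps5 (7.83) lowest. Mrps36 carries a ribosomal name but is known as a part of the 2-oxoglutarate dehydrogenase complex. The order depends on which transcript is taken, and Mrps17 moved from 11.5 to 67.2 CPM per kb between its representative and its median transcript length.

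**Figure D1:**
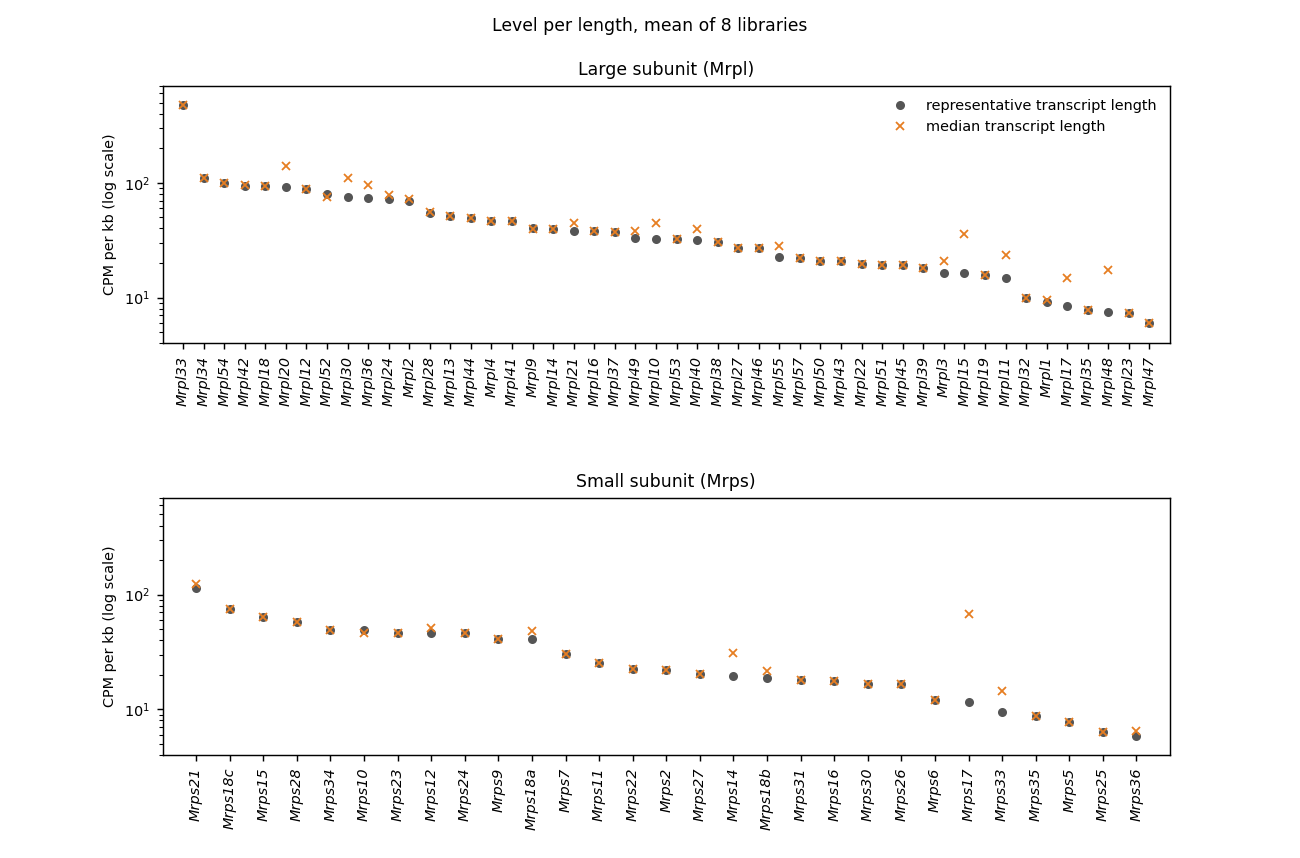
Level of each member per kilobase of transcript (CPM per kb, log scale), as the mean of the 8 libraries, for the large and small subunits. Circles use the representative transcript and crosses the median transcript length; Mrpl33 lies at 480 CPM per kb, above all other members, and most members lie between 6 and 120.

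The comparison of aggressive with new AML asked whether these genes differed between newly generated cells and cells obtained by serial transplantation. Mrpl2, Mrpl57, Mrpl3, Mrps10 and Mrps28 were higher in aggressive AML, and no member was called lower in this fit or by limma or DESeq2. At an unadjusted p under 0.05, 1 member (Mrpl16) was lower. The calls, 5 of 77 members (6.49%), stood against a background of 8.15% of the 12494 genes tested called higher and 10.2% called lower, so the share of members called was near the background for higher genes. Calls are those of the quasi-likelihood test of edgeR at a Benjamini-Hochberg adjusted p under 0.05 over all genes tested. In these bulk libraries, a change in the amount of RNA per cell and a change in the share of cells of a kind cannot be told apart.

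Mrpl2 encodes the counterpart of bacterial L2, a protein near the center where peptide bonds form. The new AML libraries stood at 59.4, 59.4, 64.2 and 58.1 CPM and the aggressive AML libraries at 94.8, 77.2, 86.2 and 72.5 CPM. The groups did not overlap, and the spread was wider in aggressive AML, with means of 60.3 ± 2.71 and 82.7 ± 9.89 CPM (SD, n = 4 each). Its log2 fold change was 0.45 ± 0.09 (SE, 95% interval 0.25 to 0.65), with an edgeR adjusted p of 0.00352.

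Mrps10 encodes the counterpart of bacterial S10 in the head of the small subunit. Its level was 41.5, 43.7, 47.4 and 37.3 CPM in new AML, and 55.9, 59.1, 55.3 and 56.9 CPM in aggressive AML. Every aggressive AML library lay above every new AML library, and the aggressive AML values were close together (56.8 ± 1.68 against 42.5 ± 4.22 CPM, SD, n = 4 each). The log2 fold change was 0.42 ± 0.09 (SE, interval 0.22 to 0.62) with an edgeR adjusted p of 0.00633. Mrpl2 and Mrps10 were called in all 10 alternative analyses and in all 8 that left out a library.

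Mrpl57 encodes a protein of the large subunit without a bacterial counterpart. It was measured at 58.6, 53.5, 61.7 and 50.6 CPM in new AML and at 73.6, 69.1, 75.5 and 68.4 CPM in aggressive AML. The log2 fold change was 0.35 ± 0.09 (SE, interval 0.16 to 0.54; edgeR adjusted p = 0.0122), and the groups did not overlap. Leaving out new AML replicate 2 raised the adjusted p to 0.0503.

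Mrpl3 encodes the counterpart of bacterial L3, another protein that reaches toward the catalytic center. Values of 59.6, 56.1, 63.1 and 53.9 CPM were found in new AML and of 71.4, 71.1, 77.1 and 66.9 CPM in aggressive AML. The groups were separate, though the highest new AML library (replicate 3) lay close to the lowest aggressive one. The log2 fold change was 0.30 ± 0.09 (SE, interval 0.12 to 0.48; edgeR adjusted p = 0.0248), and the call held in 4 of the 8 fits that left out a library, with an adjusted p of up to 0.0855 (without new AML replicate 2).

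Mrps28 encodes a protein of the small subunit related to bacterial S1. Its level was 37.5, 37.8, 48.0 and 33.8 CPM in new AML against 54.8, 50.4, 49.2 and 48.5 CPM in aggressive AML. New AML replicate 3 stood nearly as high as the lowest aggressive library, and the other new AML libraries stood well below. The log2 fold change was 0.37 ± 0.11 (SE, interval 0.13 to 0.61; edgeR adjusted p = 0.0311). This call was lost when the trend of each library's levels with transcript length and GC content was removed. The call held in 3 of the 8 fits that left out a library, with an edgeR adjusted p of up to 0.0992 (without new AML replicate 4). None of the exons of the 5 called members overlapped an exon of another annotated gene.

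**Figure D2:**
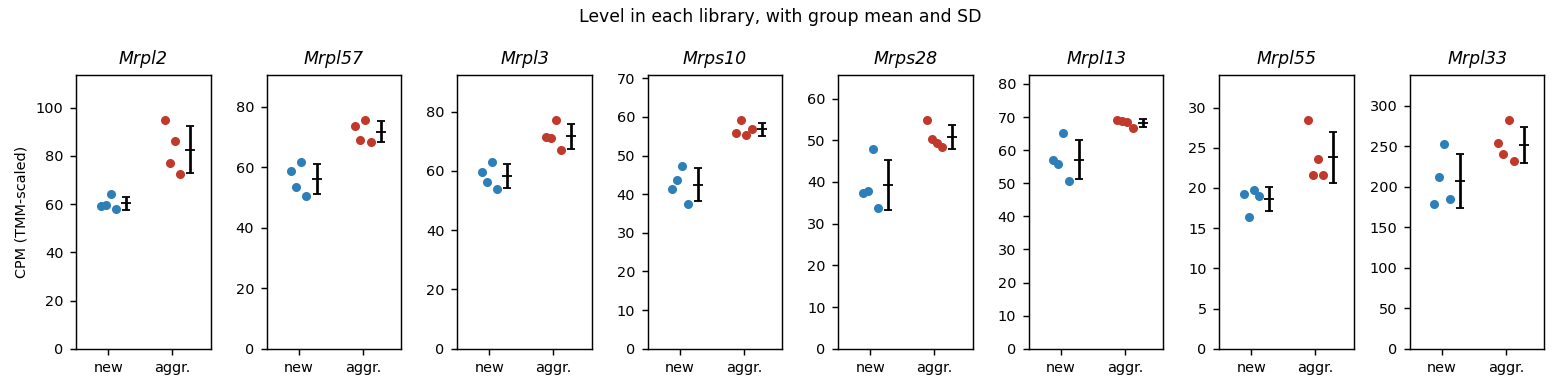
CPM (TMM-scaled, axis from 0) in each new AML and aggressive AML library for the 5 called members and the 3 with the smallest adjusted p above the threshold. Points are libraries and the bars beside them are the mean and SD (n = 4); the groups are separate for all but Mrpl33.

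The 3 members with the smallest adjusted p above the threshold all belonged to the large subunit. Mrpl13, the counterpart of bacterial L13, had 57.1 ± 5.92 CPM in new AML and 68.3 ± 1.15 CPM in aggressive AML (log2 fold change 0.26 ± 0.09, adjusted p = 0.0595), but its exons overlap those of Mtbp on the opposite strand. Mrpl55 had 18.6 ± 1.51 and 23.8 ± 3.20 CPM (0.35 ± 0.13, adjusted p = 0.0659). Both were separate between groups without passing the test. Mrpl13 passed it in 3 of the 10 alternatives (upper quartile scaling, a filter at 5 CPM and DESeq2). Mrpl33, the most abundant member, stood at 178, 212, 252 and 185 CPM in new AML and at 253, 239.8, 282 and 232 CPM in aggressive AML. Its groups overlapped through new AML replicate 3, and its log2 fold change of 0.28 ± 0.10 had an adjusted p of 0.0701. Groups did not overlap for 9 members, all with aggressive AML higher, against a background of 9.76% of genes tested in that direction and 12% in the other, which compares with 9 of 77 (11.7%) and 0 members.

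Mrpl23 had the largest difference of all members (0.46 ± 0.20) at a low level, 4.30 ± 0.294 CPM in new AML and 5.90 ± 0.468 CPM in aggressive AML, and was not called (adjusted p = 0.128). The annotation holds pseudogene copies of Mrpl23, Mrpl27, Mrpl48 and Mrps36, so reads may be shared and their counts are uncertain. At the other end, Mrpl16, the counterpart of bacterial L16, had the most negative value. It stood at 40.0, 45.4, 64.0 and 47.3 CPM in new AML and at 41.8, 46.9, 33.2 and 33.3 CPM in aggressive AML. The groups overlapped, and the high mean in new AML rested on replicate 3. Its log2 fold change of -0.34 ± 0.15 had an adjusted p of 0.124, and it passed the test as lower (1 alternative of 10) once the length and GC trend was removed.

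The 3 paralogs of bacterial S18 occupy different places in the mitoribosome, with Mrps18a in the large subunit despite its name. Mrps18a had 34.7 ± 5.85 CPM in new AML and 37.3 ± 3.66 CPM in aggressive AML (log2 fold change 0.10 ± 0.13, adjusted p = 0.614). Mrps18b had 18.4 ± 3.22 and 22.4 ± 2.55 CPM (0.29 ± 0.14, adjusted p = 0.181), and Mrps18c had 44.2 ± 6.81 and 50.6 ± 4.74 CPM (0.19 ± 0.12, adjusted p = 0.268). No paralog passed the test, and the intervals of all 3 fold changes included 0. Per kilobase, Mrps18c was the highest of the trio (74.3 CPM per kb) and Mrps18b the lowest (18.9 CPM per kb).

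**Figure D3:**
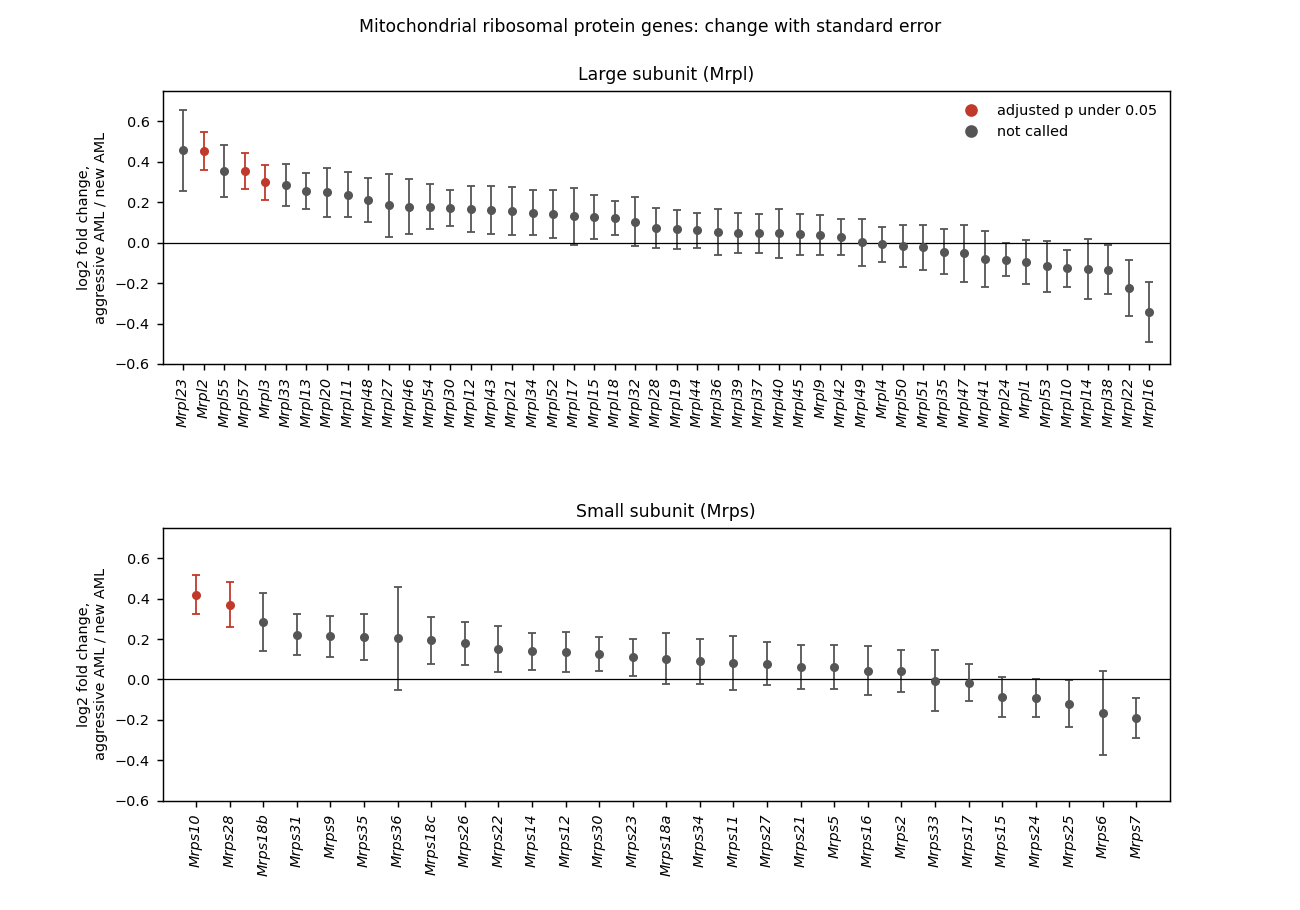
Log2 fold change of aggressive over new AML for the 48 large subunit and 29 small subunit members, with standard error, in order of size. Red points are the 5 called members; 34 of 48 and 22 of 29 members lie above 0.

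Fold changes of most members were small and above 0. The log2 fold change was above 0 in 56 of 77 members (72.7%) and in 50.1% of all genes tested, with a median of 0.09 against 0.00. No member changed by more than 0.5 on the log2 scale, which 17.4% of all genes did, and 58 members (75.3%) lay within 0.2 of 0, against 51.6% of all genes. The 95% interval of the fold change lay wholly within 1.5-fold either way for 68 of 77 members (88.3%). This was so for 60.9% of all genes tested and for 75.9% of the 5610 genes at the level of the middle 90% of members. An unadjusted p under 0.05 was found for 12 members (15.6%), against 32.6% of all genes tested. As a description, the members had smaller differences than the table at large, and most of these pointed toward aggressive AML. After the length and GC trend was removed, the median over members was 0.05 and that over all genes 0.02. Members have short transcripts (median 1288 bases against 2865 over all genes tested).

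**Figure D4:**
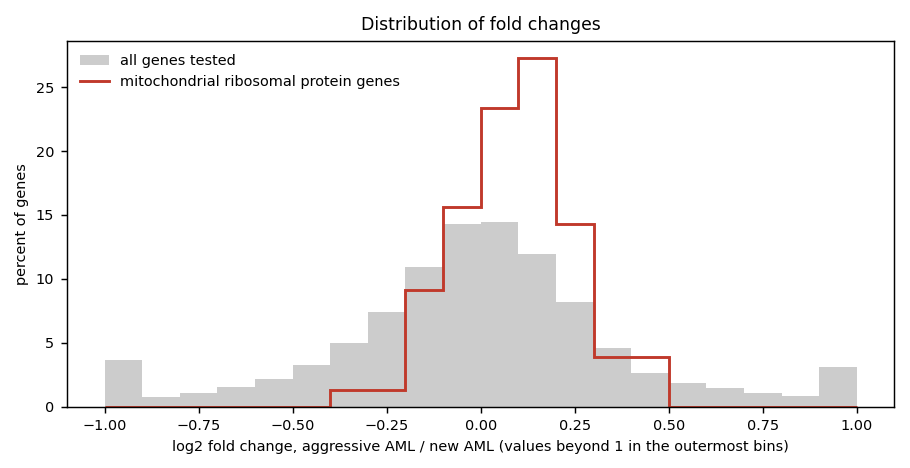
Percent of genes in each bin of log2 fold change (aggressive over new AML) for the 77 members (red line) and all 12494 genes tested (grey). Members are gathered between -0.4 and 0.5 with a median of 0.09, whereas the grey distribution is centered at 0.00 with longer tails.

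The large and small subunits had similar shares of called members and similar medians. By name, 3 of 48 large subunit members and 2 of 29 small subunit members were called higher, with median log2 fold changes of 0.07 and 0.10. Assigned by structure, where Mrps18a and Mrps30 count with the large subunit and Mrps36 with neither, the medians were 0.09 over 50 members and 0.09 over 26. The mean log2(CPM + 1) of the large subunit exceeded that of the small subunit by 0.35 ± 0.05 in new AML and by 0.33 ± 0.02 in aggressive AML (SD, n = 4 each). This difference between subunits varied from 0.28 to 0.39 over the 8 libraries, and the groups overlapped.

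Members with a bacterial counterpart and those without were also alike in their medians. Of 46 members with a counterpart, 4 were called and 32 lay above 0, with a median log2 fold change of 0.09. Of the 31 without one, Mrpl57 was called and 24 lay above 0, with a median of 0.09. The shares called higher were 8.70% and 3.23%, beside 8.15% of all genes tested. The assignment follows the unified names of ribosomal proteins, in which Mrps18a and Mrps18b do not count as bacterial although all 3 paralogs are related to S18. An unadjusted p under 0.05 was found for 10 of the 46 (21.7%) and 2 of the 31 (6.45%), both under the 32.6% of all genes tested, and the difference between these classes was not tested.

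Libraries differed in the level of the whole set. The mean log2(CPM + 1) over all members was 5.39, 5.35, 5.57 and 5.29 in new AML and 5.58, 5.51, 5.45 and 5.42 in aggressive AML. New AML replicate 3 stood as high as the highest aggressive AML libraries, and the groups overlapped through it. The means were 5.40 ± 0.12 and 5.49 ± 0.07 (SD, n = 4 each), so the difference of 0.09 was smaller than the spread within new AML. New AML replicate 3 held the highest value of its group for 59 of 77 members (76.6%), against 28.2% of all genes tested, and new AML replicate 4 held the lowest for 44. Aggressive AML replicate 4 held the lowest value of its group for 40 members and replicate 1 the highest for 39. Members took 0.348% to 0.418% of the counts in new AML and 0.381% to 0.418% in aggressive AML. Without new AML replicate 3, 10 members were called higher, which added Mrpl11, Mrpl12, Mrpl13, Mrpl20 and Mrpl33 to the 5 above. In the same fit 8.47% of all genes tested were called higher. The number called was 2 without new AML replicate 2 (5.12% of all genes), and 3 without new AML replicate 4 (5.70%), aggressive AML replicate 1 (6.15%) or aggressive AML replicate 2 (5.90%).

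**Figure D5:**
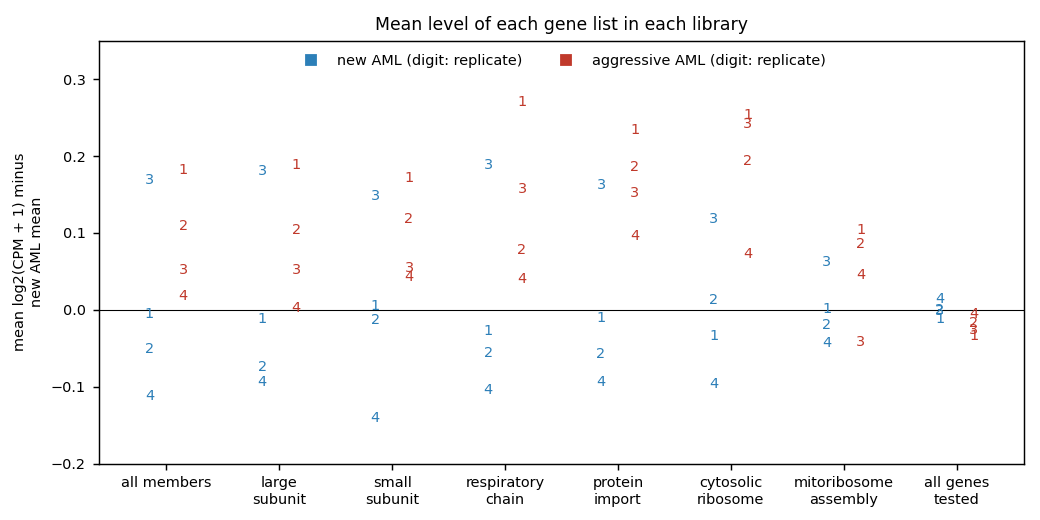
Mean log2(CPM + 1) of each gene list in each library, minus the mean of the new AML libraries for that list. Digits are replicate numbers, blue for new AML and red for aggressive AML; new AML replicate 3 lies above the other new AML libraries in every list shown but that of all genes tested, and for the members it lies beside aggressive AML replicate 1.

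Other nuclear genes for mitochondrial translation and its products were set beside the members. The 6 mitoribosomal proteins with other names (Ptcd3, Aurkaip1, Chchd1, Dap3, Ict1 and Gadd45gip1) had 0 calls by edgeR and a median log2 fold change of 0.13. Of these 6, 1 (16.7%) had an unadjusted edgeR p under 0.05, against 32.6% of all genes tested. Ptcd3, a pentatricopeptide protein of the small subunit, had 79.9 ± 7.89 CPM in new AML and 93.2 ± 1.63 CPM in aggressive AML (log2 fold change 0.22 ± 0.08, adjusted p = 0.0782). Dap3, a GTP-binding protein of the small subunit, had 75.4 ± 7.35 and 81.3 ± 6.19 CPM (0.11 ± 0.09, adjusted p = 0.44). Ict1, a peptidyl-tRNA hydrolase built into the large subunit, had 41.5 ± 5.18 and 43.8 ± 3.91 CPM (0.08 ± 0.11, adjusted p = 0.668).

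The genes that assemble and serve the mitoribosome form short lists. Shares called in either direction were 0% (assembly and rRNA modification), 7.69% (translation factors) and 11.8% (aminoacyl-tRNA synthetases). By the same measure the share was 6.49% of the members and 18.4% of all genes tested. Differences between these shares were not tested. Of 27 genes for mitoribosome assembly and rRNA modification, none was called by edgeR, and their median was 0.02. For 3 of them (11.1%) the unadjusted edgeR p was under 0.05, against 32.6% of all genes tested. Of 13 translation factors, Guf1 was higher (57.5 ± 3.24 against 71.4 ± 6.14 CPM, log2 fold change 0.31 ± 0.09, adjusted p = 0.0238), with a median of -0.04 over the list. Guf1 is the counterpart of the bacterial elongation factor LepA. Of 17 mitochondrial aminoacyl-tRNA synthetases, Iars2, which charges isoleucine tRNA, rose from 85.5 ± 1.77 to 113 ± 12.2 CPM (0.40 ± 0.09, adjusted p = 0.00433). Cars2, which charges cysteine tRNA, fell from 46.4 ± 3.58 to 37.2 ± 3.35 CPM (-0.32 ± 0.10, adjusted p = 0.042), and the median of the list was 0.04.

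The respiratory chain, protein import and the cytosolic ribosome were read in the same fit. Of 76 nuclear-encoded respiratory chain subunits, 62 lay above 0 and 3 were called higher, Ndufv3 (log2 fold change 0.51 ± 0.10), Ndufb6 (0.32 ± 0.10) and Cox7a2 (0.37 ± 0.12), with a median of 0.13. Of 22 genes for protein import, 20 lay above 0 and the receptors Tomm70a (0.35 ± 0.07) and Tomm20 (0.33 ± 0.09) and the channel subunit Timm17a (0.48 ± 0.15) were called higher, with a median of 0.17. Cytosolic ribosomal proteins, the counterparts of the members outside mitochondria, had 20 of 82 genes called higher and 0 called lower, with a median of 0.19 and 77 genes above 0. Among them were Rpl36 (0.60 ± 0.15), Rpl27 (0.44 ± 0.13) and Rps14 (0.39 ± 0.12), and many of these genes have near-identical pseudogenes that may share reads. The share called higher was 24.4% for cytosolic ribosomal proteins, 13.6% for protein import, 3.95% for respiratory chain subunits and 6.49% for the members. Of all genes tested, 8.15% were called higher. Differences between these lists were not tested.

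Members were spread over 17 chromosomes. The 2 members with the smallest adjusted p, Mrpl2 (chr17:46646229-46650139, + strand, 7 exons) and Mrps10 (chr17:47368887-47381417, + strand, 7 exons), lie 718748 bases apart on chromosome 17, in the order Mrpl14, Mrps18a, Mrpl2 and Mrps10. Over the 33 tested genes of the stretch from Mrpl14 to Mrps10 the median log2 fold change was -0.02. Of these genes 3 were called higher, Mrpl2 and Mrps10 among them, and 4 lower. Its other members, Mrpl14 (log2 fold change -0.13) and Mrps18a (0.10), were not called.

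Many members share a start region with a gene on the opposite strand. A divergent protein-coding start, within 1000 bases upstream or overlapping by up to 200 bases, was annotated for 26 members (33.8%) and for 13.2% of the 11138 protein-coding genes tested. One pair joins both subunits. Mrpl46 and Mrps11 lie head to head on chromosome 7 with RefSeq starts 42 bases apart, and the stretch around the start of Mrps11 is shown with a match to the reverse complement of the YY1 motif in capitals.
Mrps11, chr7:78782981-78783160, + strand: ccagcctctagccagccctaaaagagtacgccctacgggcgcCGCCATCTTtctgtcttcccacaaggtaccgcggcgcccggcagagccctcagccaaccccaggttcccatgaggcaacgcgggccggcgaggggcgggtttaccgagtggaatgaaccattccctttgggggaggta
Mrpl46 had 24.7, 25.3, 36.1 and 28.2 CPM in new AML and 33.6, 29.3, 37.8 and 28.8 CPM in aggressive AML. Mrps11 had 27.6, 28.1, 26.9 and 21.3 CPM, and 31.7, 30.4, 24.9 and 23.0 CPM, respectively. The groups overlapped for both genes, and new AML replicate 3 was the highest of its group for Mrpl46 but not for Mrps11. Neither passed the test (log2 fold change 0.18 ± 0.14 and 0.08 ± 0.13). Exons of 25 members overlap an exon of another annotated gene. Because the strand setting of the counting was not stated, the counts of these members may include reads of the other gene.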

How the data were processed

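RNA from sorted GFP+ cells was sequenced in 8 libraries. The authors purified polyadenylated RNA, aligned paired reads to mm10 with HISAT2, counted them per gene with Rsubread and removed genes of low expression at 1 CPM. The deposited values are whole and sum to unequal library totals although their table is named after CPM, and they were treated as read counts. The annotation and strand setting were not given in the sources used here. Every deposited sample column was used.

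Rows with at least 1 CPM in at least 4 libraries were tested (12494 of 12823) with edgeR 4.0.16 (R 4.3.3), TMM factors (0.986 to 1.01) and the group alone in the model, two-sided, with Benjamini-Hochberg adjustment over all genes tested. CPM are TMM-scaled. Total counts per library set the counting precision, and 1 count was worth 0.103 to 0.130 CPM after this scaling. Alternatives were other scalings and filters, limma 3.58.1, DESeq2 1.42.0, a replicate block, removal of the trend with transcript length and GC content, and leaving out each library. The fitting code was also run on simulated counts, and the outcome is not given here. Genes were drawn independently in them, so library shifts shared by many genes were not covered. Coordinates and lengths came from GENCODE vM21 (GRCm38), which matched 94.6% of names. Exon numbers are those of the representative transcript, which is the coding transcript of best annotation rank.

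Members, gene lists and motifs were chosen with earlier results of these data known. Named one by one were called members, the 3 with the smallest adjusted p above the threshold, the 3 highest and lowest of each subunit per length, the Mrps18 trio and called genes of the lists (for cytosolic ribosomal proteins, some of the largest). Other named genes were chosen after their values were seen. Of the B cell markers 3 of 4 and of the megakaryocyte markers 2 of 3 were in the table, with 30.6 to 42.2 CPM and 3.85 to 10.4 CPM in sum.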

Additional observations from a re-analysis of the deposited data

Results flagged for a closer look

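In 160 groups of 4 libraries (77 members and 3 mean levels, in each condition), 6 held a library far from the other 3, by a gap that passed Dixon's critical value for 4 values. This is 3.75%, and chance flags about 1 in 20. New AML replicate 3 stood above the rest of its group for Mrpl20 (83.9 CPM, others 55.0 to 59.7), Mrpl15 (80.3 CPM, others 58.0 to 61.3) and Mrpl40 (49.0 CPM, others 36.2 to 38.3). In aggressive AML, replicate 4 was low for Mrpl20 (69.2 CPM, others 77.3 to 78.5), replicate 3 was low for Mrpl24 (83.3 CPM, others 96.2 to 98.1) and replicate 3 was high for Mrps9 (73.2 CPM, others 58.0 to 59.6). None of these members was called.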

How the results depend on the processing

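Mrpl2, Mrps10, Mrpl57 and Mrpl3 were called higher in all 10 alternatives that kept every library, and the number called higher lay between 4 and 6. With the length and GC trend removed, 1 large subunit member was called lower, so that 1 of all members was lower, and 1 small subunit member was called higher, as was the case (1) with this trend removed under the replicate block. Replicate numbers showed no clear pairing of the libraries, and the deviations of same-numbered libraries correlated at 0.10, -0.04, -0.07 and 0.20. Those of differently numbered libraries correlated at -0.18 to 0.15. Correlations this weak and few cannot exclude a pairing. Under the replicate block, 6 members were called higher (Mrpl33 was added), 9 respiratory chain subunits were called higher, 2 regulators of mitochondrial gene expression were called lower and 0 aminoacyl-tRNA synthetases were called lower. Leaving out 1 library gave 2 to 10 members called higher, 1 to 8 of the large subunit and 1 to 2 of the small subunit, with 0 called lower; the median over members ran from 0.05 to 0.15. Under it the log2 fold change of Mrps18a ran from -0.00027 to 0.17. At 5 CPM in 4 libraries, 76 members were tested. For the 5 members with under 100 counts in a library, as for others not called, an absent call does not show that their levels were alike. The cause of these differences was not tested.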

Other observations

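Genes upstream of mitochondrial gene expression were also read. Of 11 genes for transcription and maintenance of mitochondrial DNA, 9 lay below 0 and none was called by edgeR, with a median log2 fold change of -0.10. An unadjusted edgeR p under 0.05 was found for 3 of them (27.3%), against 32.6% of all genes tested. Of 12 regulators of mitochondrial gene expression, 10 were in the table and tested. Of these, 5 lay above 0 and 5 below, with a median log2 fold change of 0.02 and a range of -0.62 to 0.43. Max, the partner of MYC at E-boxes, was lower (104 ± 2.87 CPM in new AML and 82.4 ± 11.5 CPM in aggressive AML, log2 fold change -0.33 ± 0.10, edgeR adjusted p = 0.027). Myc had 204 ± 15.9 and 133 ± 58.1 CPM (-0.62 ± 0.25, adjusted p = 0.0936), with a wide spread in aggressive AML. The factors of the other motifs searched lay close to 0, with log2 fold changes of 0.10 ± 0.07 for Gabpa, -0.04 ± 0.08 for Nrf1 and -0.02 ± 0.08 for Yy1, none of which passed the test.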
